A study of Mus musculus with 8 samples.

Results

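The genes of class I and class II antigen presentation were examined in cultured smooth muscle cells of the mouse aorta, which give the vessel wall its tone. Members were the 37 mouse symbols of a list covering class I heavy chains and their light chain, the immunoproteasome, peptide loading, class II molecules and the regulators of both classes. All 37 were found, by Entrez identifier, among the 24704 genes of the expression table. The AdN5 group of 4 arrays is labelled NFAT5 overexpression and the AdPl group of 4 arrays is labelled control. NFAT5 is known for switching on genes under osmotic stress. Cells of both groups were kept in serum-containing medium, carried an adenovirus for 24 h and were then given cholesterol at 10 µg/ml for 72 h, so no array shows cells without virus or without cholesterol. The labels do not name the promoter that drives the transgene, the strain or the age of the mice, nor do they state separate cultures for the replicates. The p-values therefore reflect the spread among these 8 samples alone, and that spread may be technical.

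MHC class I molecules show peptides made inside the cell to CD8 T cells. The proteasome cuts the peptides, the TAP transporter carries them into the endoplasmic reticulum, and chaperones load them onto a heavy chain paired with beta-2-microglobulin. Class II molecules show peptides from the endosome to CD4 T cells and are made mainly by professional antigen-presenting cells, although interferon gamma can induce them in other cells, smooth muscle cells included. NLRC5 is the master activator of class I genes and CIITA that of class II genes, and both work through RFX and NF-Y proteins bound to X and Y boxes near the gene start.

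The upstream sequences of 6 members are shown because they carry the elements that class I and class II genes share, and because their fold changes lie on both sides of 0. They cover 250 bases before the annotated start, 5′ to 3′ on the gene's strand, from RefSeq promoter windows of the mouse build GRCm38.p6. H2-K1 has a pair of annotated starts, and the window of 1 is shown. Capitals mark the sequences searched on both strands. These were ATTGG (the core bound by NF-Y), CTGATTGG (the classical Y box, which contains ATTGG) and the core of an interferon-stimulated response element (GAAA, any 2 bases, GAAA). The others were the kappa B sequence of the class I enhancer (the first capitals in the H2-K1 line) and TGGAAA (the core bound by NFAT proteins, NFAT5 included). In the Tap1 window TGGAAA overlaps ATTGG.
H2-K1, chr17:34000348-34000597, minus strand: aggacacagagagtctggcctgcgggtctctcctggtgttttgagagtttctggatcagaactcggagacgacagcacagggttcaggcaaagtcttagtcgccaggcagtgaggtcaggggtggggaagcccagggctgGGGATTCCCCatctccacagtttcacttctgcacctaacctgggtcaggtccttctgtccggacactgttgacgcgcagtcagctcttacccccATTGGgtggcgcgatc
H2-D1, chr17:35262844-35263093, plus strand: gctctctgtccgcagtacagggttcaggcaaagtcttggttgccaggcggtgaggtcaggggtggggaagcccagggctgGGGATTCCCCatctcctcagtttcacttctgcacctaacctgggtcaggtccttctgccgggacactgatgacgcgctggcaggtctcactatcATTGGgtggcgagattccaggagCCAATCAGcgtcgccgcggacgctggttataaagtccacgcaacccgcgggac
H2-T23, chr17:36032702-36032951, minus strand: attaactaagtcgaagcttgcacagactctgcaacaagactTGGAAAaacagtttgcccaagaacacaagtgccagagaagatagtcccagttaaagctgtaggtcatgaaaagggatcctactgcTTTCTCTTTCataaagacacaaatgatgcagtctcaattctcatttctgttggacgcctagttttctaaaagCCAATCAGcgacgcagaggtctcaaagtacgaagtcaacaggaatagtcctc
Tap1, chr17:34187306-34187555, plus strand: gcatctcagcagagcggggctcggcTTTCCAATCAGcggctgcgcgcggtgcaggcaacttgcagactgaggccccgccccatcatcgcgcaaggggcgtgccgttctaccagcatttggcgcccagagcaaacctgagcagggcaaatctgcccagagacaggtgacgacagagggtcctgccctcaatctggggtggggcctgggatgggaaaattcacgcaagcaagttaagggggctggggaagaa
H2-Aa, chr17:34287824-34288073, minus strand: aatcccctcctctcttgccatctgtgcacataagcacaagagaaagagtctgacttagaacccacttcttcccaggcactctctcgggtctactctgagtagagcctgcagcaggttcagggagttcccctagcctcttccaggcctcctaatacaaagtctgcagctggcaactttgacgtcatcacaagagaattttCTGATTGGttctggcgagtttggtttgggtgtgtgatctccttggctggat
H2-Eb1, chr17:34305617-34305866, plus strand: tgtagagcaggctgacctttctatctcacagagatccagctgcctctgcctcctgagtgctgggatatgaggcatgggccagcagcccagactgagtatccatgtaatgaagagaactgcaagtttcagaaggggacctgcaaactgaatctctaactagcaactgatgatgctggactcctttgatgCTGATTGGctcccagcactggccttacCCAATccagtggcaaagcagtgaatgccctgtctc
Windows were held for 28 members. H2-Ab1, Cd74, Ciita, Nlrc5, Tap2, Tapbpl, H2-T24, Cd1d1 and Rfxap had none. CTGATTGG was present in the windows of 9 of the 28 members, H2-D1, H2-Q7, H2-T23, Psmb9, Tap1, Canx, H2-Aa, H2-Eb1 and H2-Oa, and in 3.83% of the 32851 windows of all genes. ATTGG was found for 21 of the 28 members and in 33.8% of all windows, and TGGAAA for 7 of the 28 members and in 18.6% of all windows. The kappa B sequence occurred for H2-K1 and H2-D1 among the members and in 0.0852% of all windows. An exact match to the interferon-stimulated element core occurred for B2m and H2-T23 and in 2.98% of all windows. Looser forms of that element were not searched, so a window without this match may hold one. The windows of Psmb9 and Tap1, which are transcribed away from each other, share 225 of their 250 bases. A member counted if any of its windows held the sequence, whereas the shares for all genes are shares of windows. H2-K1, H2-DMa and Psme2 had more than 1 window. A match describes letters only and is not a measured binding site.

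The arrays were single-colour Affymetrix arrays with the authors' log2 RMA values, a quantile-normalised scale on which 1 unit is a doubling. Pairs of arrays correlated across genes at 0.990 to 0.992 within AdN5, at 0.992 to 0.993 within AdPl and at 0.989 to 0.992 between the groups. On the second principal component AdN5 replicate 4 (24.7) and AdPl replicate 3 (14.2) lay at one end and AdN5 replicates 3 (-19.5) and 2 (-11.1) at the other, with the remaining arrays between -3.25 and 0.337. Of 10 smooth muscle markers 8 lay above the level of the median gene, with Acta2 at 11.74 in AdN5 and 12.04 in AdPl arrays. Nfat5 itself was not higher in AdN5 arrays. It measured 7.06, 6.95, 6.98 and 6.88 in AdN5 arrays, against 7.06, 7.22, 7.11 and 7.25 in AdPl arrays. Its log2 fold change was -0.19 ± 0.078 (SE; limma adjusted p = 0.360; exact two-sided permutation p = 0.0571). A rise of the targeted transcript was thus not seen. The sources used here give no probe positions, so whether the probe set reads the transgene could not be settled. Every direction below is that of the arrays labelled AdN5 relative to those labelled AdPl.

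None of the 37 antigen presentation genes differed between the groups past the threshold. A call needed an adjusted p under 0.05 in limma, after the Benjamini-Hochberg method was applied to all 24704 genes. That rule called 0.777% of all genes, 0.364% as higher and 0.413% as lower, and the adjusted p of the members ran from 0.142 to 0.983. Without AdN5 replicate 4 and AdPl replicate 3, 0 members and 30 genes in all were called, and without AdN5 replicate 3 alone 0 members and 78 genes. An unadjusted p under 0.05 was found for 7 members, where 12.5% of all genes had one. Of these 7, 6 were higher (H2-K1, Psmb8, Psme1, Erap1, Tapbp and H2-Ab1, against 6.24% of all genes) and H2-T23 was lower (against 6.29%). The fold over AdPl lay between 0.848 and 1.28 for every member. The same fit with a variance trend and robust estimation called 4 members, H2-K1, Psme1, Tapbp and Erap1, all higher. It called 3.16% of all genes and 1.46% as higher. All 4 members lay in the highest quartile of mean levels, where it called 4.32% of genes as higher. The groups did not overlap for 9 members, and for 8.78% of all genes. H2-K1, B2m, Psme1, Erap1, Tapbp, Canx, Pdia3 and H2-Ab1 were higher on every AdN5 array, a direction in which 4.22% of all genes separated. H2-T23 was lower on every AdN5 array, a direction in which 4.56% separated.

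**Figure D1:**
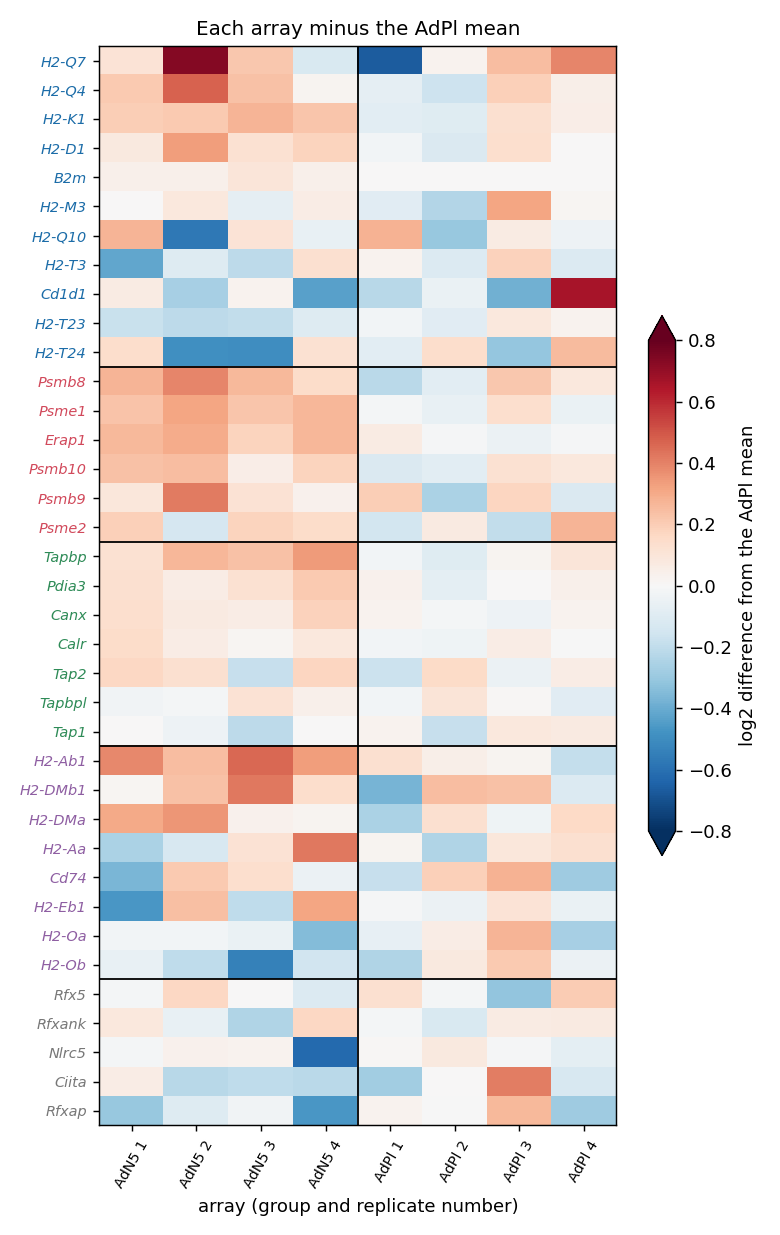
Each cell is the log2 level of an antigen presentation gene on an array minus the gene's AdPl mean. Columns are AdN5 replicates 1 to 4 and then AdPl replicates 1 to 4, rows are grouped by role (heavy chains, immunoproteasome, loading, class II, regulators, separated by lines) and ordered by fold change. Immunoproteasome rows are mostly red on the AdN5 arrays, while class II rows hold both colours on both sides.

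The fold changes of the class I steps and of class II are given list by list, and no difference between lists was tested. All 6 immunoproteasome and trimming genes had log2 fold changes above 0, with a median of 0.21. So did 6 of 7 transport and loading genes (median 0.08), 6 of 11 class I chains (median 0.02), 4 of 8 class II genes (median 0.01) and 1 of 5 regulators (median -0.14). Over all genes the median log2 fold change was 0.0042 and 51% lay above 0. The median of the class I chains turned to -0.06 without AdPl replicate 2 that of the class II genes to 0.13 without AdN5 replicate 1, and that of the regulators to -0.071 without AdN5 replicate 4. The median of the immunoproteasome list stayed between 0.19 and 0.24 with any single array left out.

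**Figure D2:**
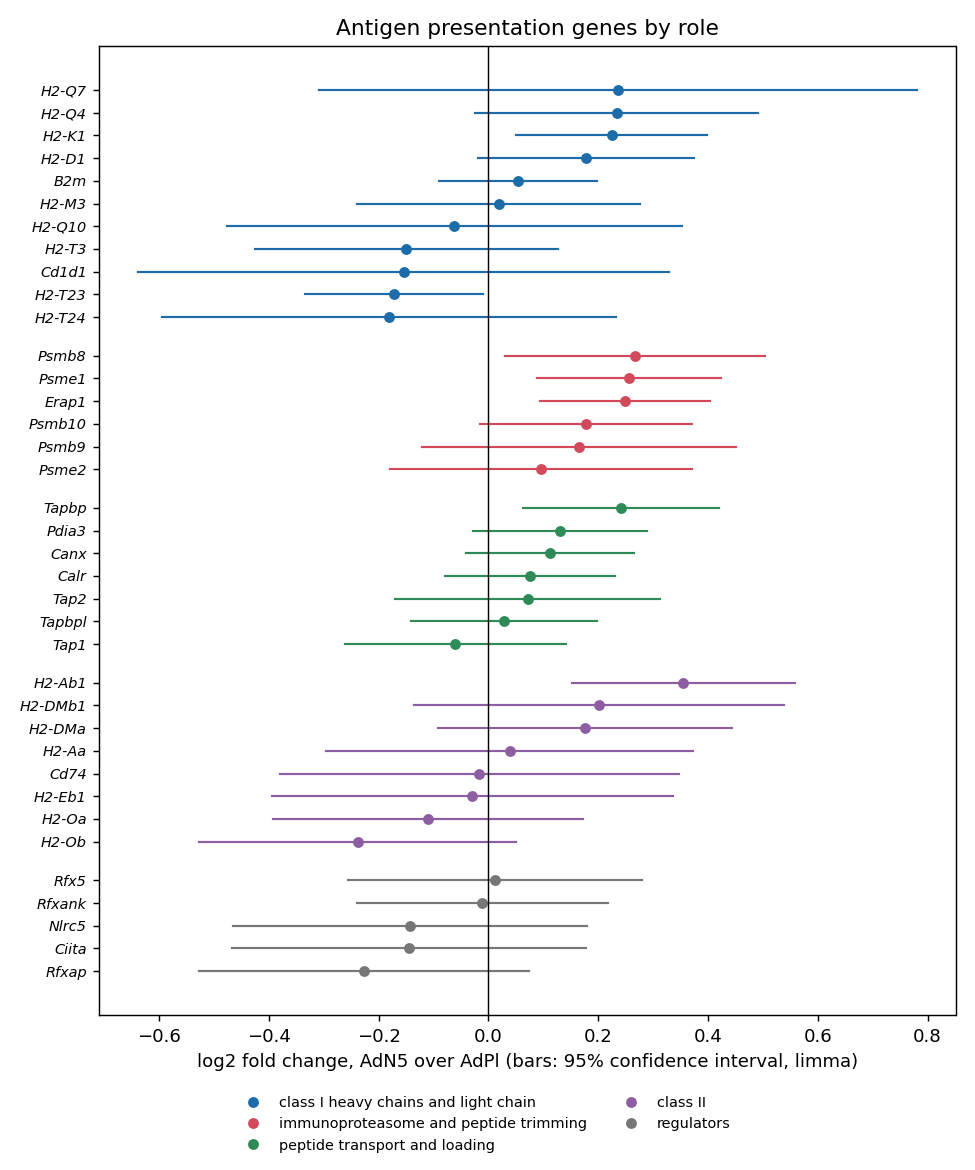
Points are the log2 fold changes of the 37 genes, AdN5 over AdPl, and bars their 95% confidence intervals from limma, coloured by role and ordered by size within each role. All 6 immunoproteasome and trimming genes lie to the right of 0, and the 5 regulators lie between -0.23 and 0.01.

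Among the classical class I heavy chains, H2-K1 and H2-D1 present peptides on nearly all nucleated cells. H2-K1 measured 10.49, 10.50, 10.56 and 10.51 in AdN5 arrays, against 10.21, 10.20, 10.42 and 10.35 in AdPl arrays. Its 4 AdN5 values lay close together, AdPl replicates 1 and 2 were the lowest, and the groups did not overlap. The log2 fold change was 0.22 ± 0.078 (SE; adjusted p = 0.268 in limma; 0.0124 with trend and robust estimation). H2-D1 measured 11.96, 12.21, 12.00 and 12.06 in AdN5 arrays, against 11.86, 11.76, 12.02 and 11.88 in AdPl arrays, so that AdPl replicate 3 lay above AdN5 replicates 1 and 3. Its log2 fold change was 0.18 ± 0.088 (SE; adjusted p = 0.456). The class I genes share long stretches of sequence, and whether a probe set read a neighbour's transcript was not tested.

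The light chain gene B2m was among the most abundant signals of every array. It measured 13.19, 13.19, 13.25 and 13.19 in AdN5 arrays, against 13.15 on each of the 4 AdPl arrays. Its value held rank 5, 5, 4 and 5 among the 25428 probe sets of the AdN5 arrays, and rank 6 on all 4 AdPl arrays. Quantile normalisation gives each rank 1 value, so the AdPl values were identical and the groups separated by a step of 1 or 2 ranks. The log2 fold change was 0.05 ± 0.064 (SE; adjusted p = 0.801).

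The non-classical chains pointed both ways. H2-T23 encodes Qa-1, which presents signal peptides to NKG2 receptors of natural killer cells. It measured 8.27, 8.23, 8.24 and 8.34 in AdN5 arrays, against 8.42, 8.35, 8.52 and 8.47 in AdPl arrays. All AdN5 values were below all AdPl values, in the direction opposite to H2-K1, with a log2 fold change of -0.17 ± 0.072 (SE; adjusted p = 0.369). H2-Q4 ranged from 7.11 to 7.56 in AdN5 and from 6.92 to 7.28 in AdPl arrays (log2 fold change 0.23). H2-Q7, which encodes Qa-2, ranged from 5.36 to 6.22 in AdN5 and from 4.82 to 5.87 in AdPl arrays (0.24), a value that was 0.014 without AdPl replicate 1 and 0.070 without AdN5 replicate 2. H2-M3, which presents formylated peptides, was at 0.02 and H2-T24 at -0.18. Dim signals came from the CD1d gene Cd1d1, which presents lipids (-0.15), the thymus leukaemia antigen gene H2-T3 (-0.15) and H2-Q10 (-0.06), known as a secreted chain of the liver. These 3 lay below the level of the median gene. AdPl replicate 4 was at 3.51 for Cd1d1, above the other 7 arrays (2.41 to 2.91), and without it the log2 fold change of Cd1d1 was 0.07.

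The immunoproteasome replaces the catalytic subunits of the standard proteasome and favours cuts that suit class I grooves. Psme1 encodes the alpha subunit of its PA28 activator. It measured 8.39, 8.47, 8.38 and 8.43 in AdN5 arrays, against 8.14, 8.10, 8.29 and 8.11 in AdPl arrays, with no overlap and with AdPl replicate 3 the nearest to the AdN5 range. Its log2 fold change was 0.26 ± 0.075 (SE; adjusted p = 0.191; 0.0170 with trend and robust estimation). Psme2, the beta subunit of the same activator, ranged from 5.80 to 6.13 in AdN5 and from 5.74 to 6.21 in AdPl arrays, and its log2 fold change was 0.10 ± 0.12.

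The catalytic subunit gene Psmb8 measured 7.33, 7.46, 7.32 and 7.21 in AdN5 arrays, against 6.85, 6.98, 7.28 and 7.14 in AdPl arrays. AdPl replicate 3 reached into the AdN5 range, and the log2 fold change was 0.27 ± 0.11 (SE; adjusted p = 0.335). Psmb10 ranged from 7.20 to 7.40 in AdN5 and from 7.03 to 7.27 in AdPl arrays (0.18), and Psmb9 from 5.93 to 6.31 in AdN5 and from 5.64 to 6.09 in AdPl arrays (0.16). AdN5 replicate 2 held the highest value of 5 of the 6 genes in this list. Erap1, the aminopeptidase that trims peptides in the endoplasmic reticulum, measured 7.70, 7.73, 7.62 and 7.70 in AdN5 arrays, against 7.51, 7.43, 7.39 and 7.43 in AdPl arrays. Its groups did not overlap and were tight (SD 0.050 in AdN5 and 0.048 in AdPl, n = 4 each), with a log2 fold change of 0.25 ± 0.069 (SE; adjusted p = 0.173; 0.0262 with trend and robust estimation). Tested only among the 12352 genes above the median level, where 4.02% of genes were called and 1.91% called as higher, Erap1 had an adjusted p of 0.0452.

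**Figure D3:**
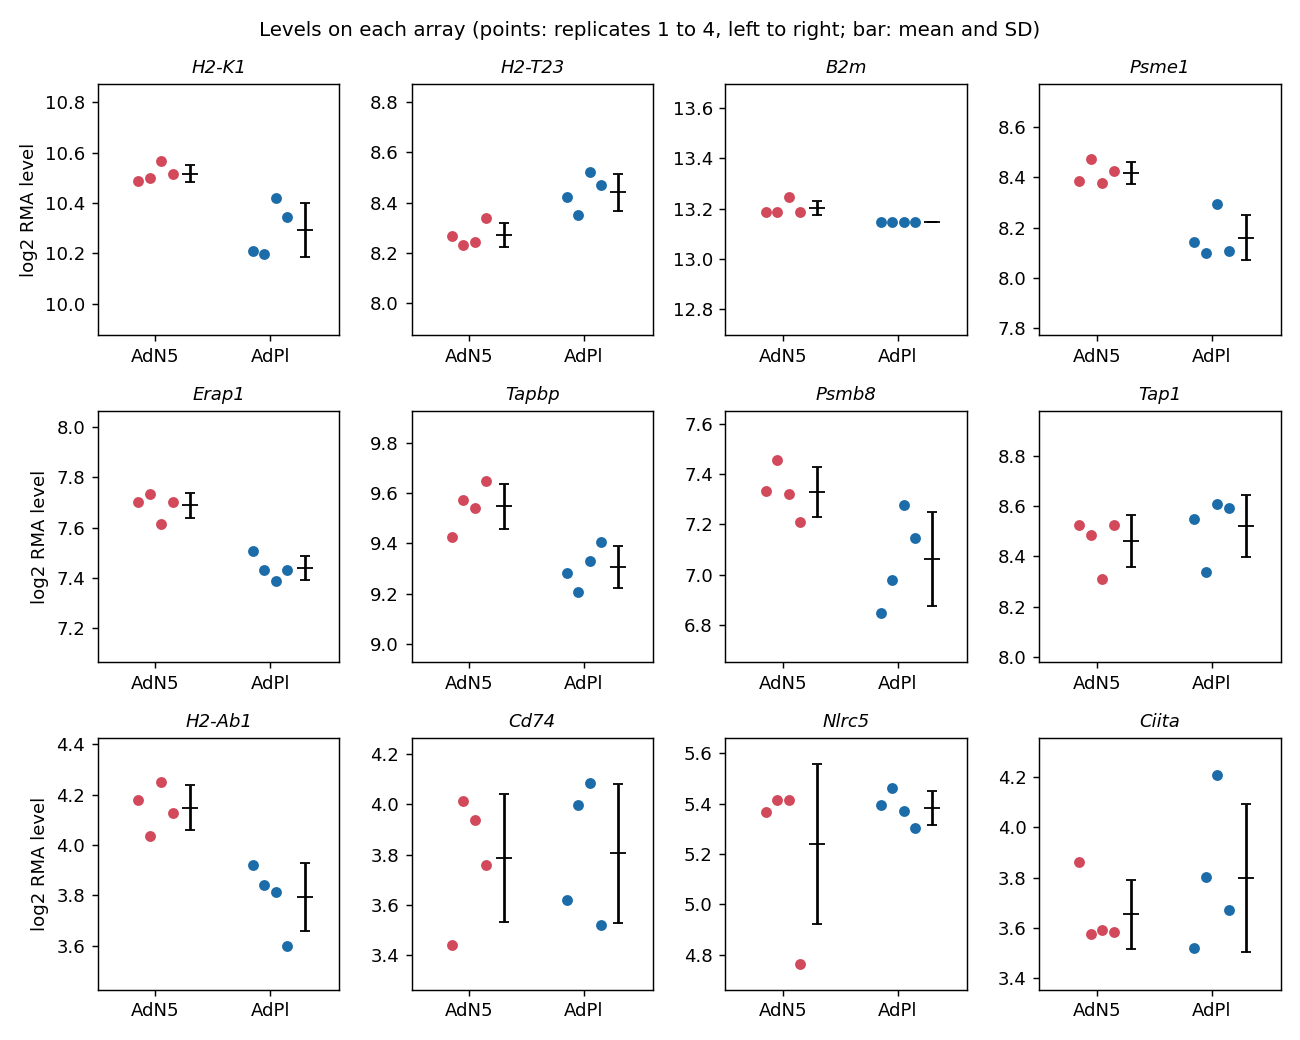
Log2 RMA levels of 12 antigen presentation genes on each array, with AdN5 on the left and AdPl on the right of each panel. Points are replicates 1 to 4 from left to right, and bars are the mean and SD of 4 arrays. H2-K1, B2m, Psme1, Erap1, Tapbp and H2-Ab1 separate upwards in AdN5, H2-T23 separates downwards, and Psmb8, Tap1, Cd74, Nlrc5 and Ciita overlap.

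Of the loading genes, Tapbp encodes tapasin, which holds empty class I molecules at the transporter. It measured 9.43, 9.57, 9.54 and 9.65 in AdN5 arrays, against 9.28, 9.21, 9.33 and 9.40 in AdPl arrays. The gap between AdPl replicate 4 and AdN5 replicate 1 was narrow, and the log2 fold change was 0.24 ± 0.080 (SE; adjusted p = 0.247; 0.0180 with trend and robust estimation). The lectin chaperone gene Canx (0.11) and the oxidoreductase gene Pdia3 (0.13) also separated, with adjusted p of 0.562 and 0.505 in limma. Calr, the other lectin chaperone, was at 0.08 and the tapasin relative Tapbpl at 0.03.

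The genes of the peptide transporter had small fold changes. Tap1 measured 8.52, 8.48, 8.31 and 8.53 in AdN5 arrays, against 8.55, 8.34, 8.61 and 8.59 in AdPl arrays. Its ranges overlapped and the log2 fold change was -0.06 ± 0.090 (SE; adjusted p = 0.851). Psmb9, the gene with which it shares its upstream window, was at 0.16 ± 0.13, and the difference between these genes was not tested. Tap2, the other transporter subunit, was at 0.07 ± 0.11, with AdN5 replicate 3 at 6.22 and the other AdN5 arrays between 6.53 and 6.58.

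Class II signals were low. Across the 8 class II genes the level percentile among all genes ran from 16.1 to 66.0, and H2-Aa, H2-Oa and H2-Ob lay below the median gene. H2-Ab1, the beta chain of I-A, measured 4.18, 4.04, 4.25 and 4.13 in AdN5 arrays, against 3.92, 3.84, 3.81 and 3.60 in AdPl arrays. Every AdN5 value was above every AdPl value, and the log2 fold change of 0.35 ± 0.091 (SE; adjusted p = 0.142) was the largest of the 37 genes. Among genes above the median level alone, where 4.02% of genes were called, its adjusted p was 0.0486 in limma. With trend and robust estimation over all genes its adjusted p was 0.193. H2-Ab1 lay at level percentile 53.0, just above the median cut. H2-Aa, the alpha chain that pairs with it, measured 1.93, 2.05, 2.29 and 2.60 in AdN5 arrays, against 2.20, 1.94, 2.27 and 2.31 in AdPl arrays. These values lay near the bottom of the scale and overlapped, with a log2 fold change of 0.04 ± 0.15.

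The invariant chain gene Cd74, needed for class II assembly, measured 3.44, 4.01, 3.94 and 3.76 in AdN5 arrays, against 3.62, 4.00, 4.09 and 3.52 in AdPl arrays. The groups covered nearly the same range, and the log2 fold change was -0.02 ± 0.16 (SE; adjusted p = 0.982; 95% interval -0.38 to 0.35). H2-Eb1, the I-E beta chain, ranged from 3.75 to 4.53 in AdN5 and from 4.17 to 4.33 in AdPl arrays (-0.03). The peptide editor genes H2-DMa (0.18) and H2-DMb1 (0.20) were on the side of H2-Ab1 and their inhibitors H2-Oa (-0.11) and H2-Ob (-0.24) on the other, each with overlapping groups.

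The regulators did not pass. Nlrc5 measured 5.37, 5.42, 5.41 and 4.76 in AdN5 arrays, against 5.39, 5.46, 5.37 and 5.30 in AdPl arrays. AdN5 replicate 4 alone lay below the AdPl range. The log2 fold change was -0.14 ± 0.14 (SE; adjusted p = 0.756), and 0.02 without that array. Ciita measured 3.86, 3.58, 3.59 and 3.58 in AdN5 arrays, against 3.52, 3.80, 4.21 and 3.67 in AdPl arrays, at the level of the median gene. Its log2 fold change was -0.15 ± 0.14 (SE; adjusted p = 0.751). Of the RFX subunits, Rfxap was at -0.23 ± 0.13, Rfx5 at 0.01 ± 0.12 and Rfxank at -0.01 ± 0.10.

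The AdPl arrays themselves differed along the class I pathway. Over its 24 genes (chains, immunoproteasome and loading), AdPl replicate 2 held the lowest AdPl value 13 times. The list mean of the immunoproteasome genes was 7.15, 7.20, 7.11 and 7.11 on the AdN5 arrays, against 6.90, 6.87, 7.01 and 6.98 on the AdPl arrays. That of the class I chains was 6.98, 6.96, 6.94 and 6.94 on the AdN5 arrays, against 6.84 to 7.05 on the AdPl arrays, where replicates 3 and 4 were above all AdN5 values. Interferon-stimulated genes showed the same low array, since 24 of 26 had their lowest AdPl value on replicate 2. Their list mean was 8.17, 8.27, 8.05 and 8.19 on the AdN5 arrays, against 7.95, 7.79, 8.08 and 8.08 on the AdPl arrays. The part of AdPl replicate 2 in the class I values was not tested beyond leaving it out.

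**Figure D4:**
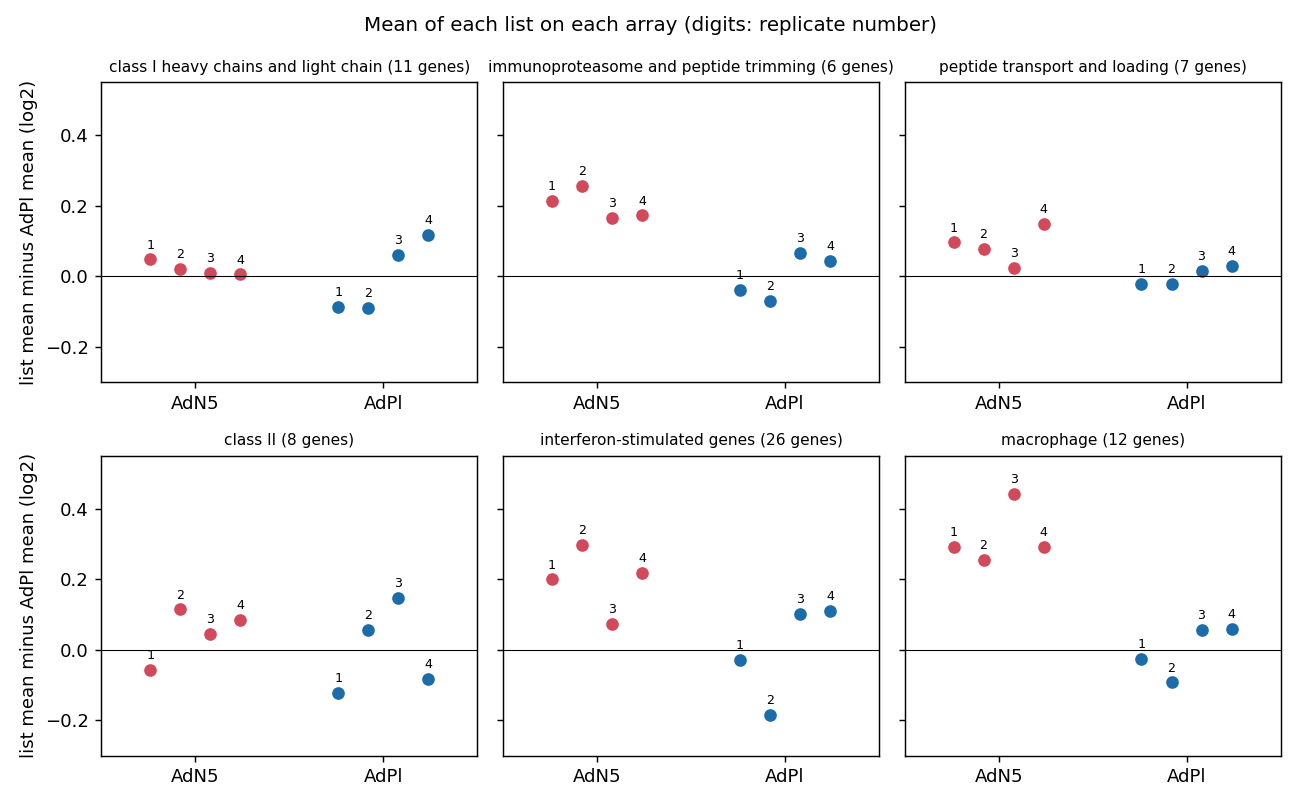
Mean log2 level of 6 gene lists on each array, minus the mean of the AdPl arrays, with AdN5 on the left and AdPl on the right and digits for the replicate number. Immunoproteasome and macrophage lists separate, whereas class I chains, loading, class II and interferon-stimulated genes overlap.

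The members were also read by their level. Among the 18 members in the highest quartile of mean levels, 15 had log2 fold changes above 0 (median 0.12), 7 separated upwards and 1 downwards. All genes of that quartile had a median of -6.1e-05, and 9.07% of them separated upwards and 10.8% downwards. Of the 6 members in the second lowest quartile 0 lay above 0 (median -0.15), where 51.6% of all genes did. These values describe the fold changes already given and were not tested.

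**Figure D5:**
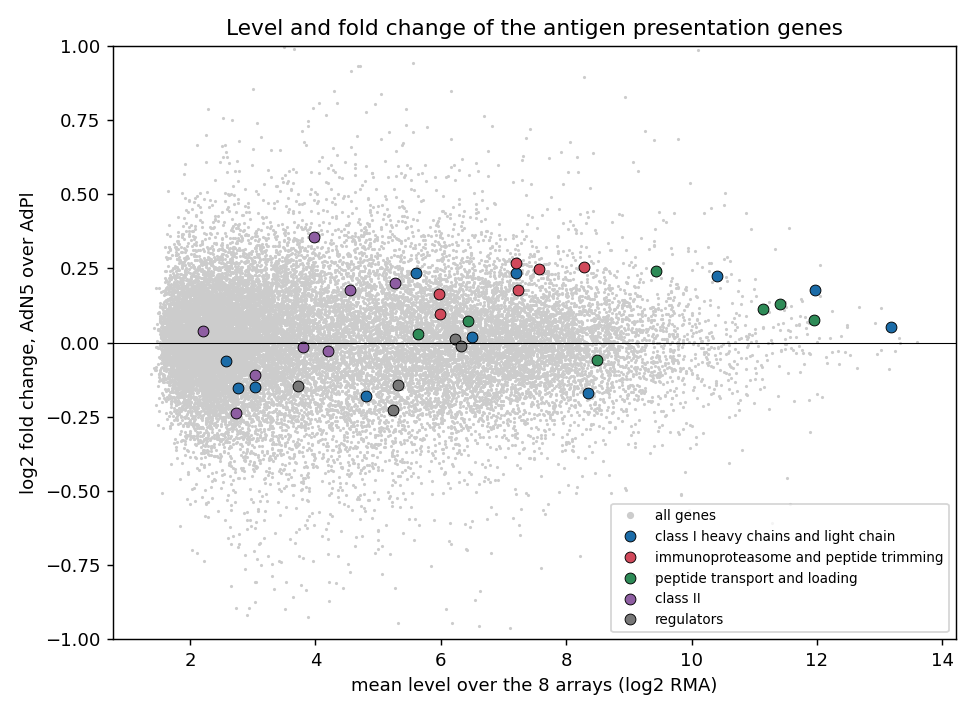
Mean log2 RMA level over the 8 arrays against the log2 fold change, AdN5 over AdPl, for all genes in grey and for the antigen presentation genes coloured by role. Fold changes beyond 1 in size (31 genes, 0 of them in the list) fall outside the plot. Immunoproteasome and loading genes lie mostly above 0 in the middle and bright range, and class II genes lie in the dim range on both sides of 0.

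Fold changes were also set beside gene position and upstream letters, as a description. In chromosome order, 20 members lie on chromosome 17 from H2-K1 to H2-M3, and 12 of them were above 0 (median 0.06). Of 161 other measured genes in that stretch 79 were above 0 (median -0.0065). Of these 161, 3 passed, all higher, where 0.777% of all genes passed and 0.364% passed as higher. They were the cytokine gene Tnf (0.58, adjusted p = 0.0283 in limma), D17H6S56E-5 (0.79, adjusted p = 0.0401) and the lysosomal thioesterase gene Ppt2 (0.43, adjusted p = 0.0334), named after their values were seen. The 9 members with CTGATTGG in their window had a median of 0.04, with 5 above 0, and the 19 without it a median of 0.13, with 15 above 0. For TGGAAA the medians were 0.08 over 7 members with it and 0.11 over 21 without it. Both genes with the kappa B sequence, H2-K1 and H2-D1, were above 0. The genes with an exact match to the interferon-stimulated element core, B2m and H2-T23, had opposite signs.

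Other genes of the pathway gave 1 call among the 99 entries measured, where 0.777% of all genes were called. Ctss encodes cathepsin S, the protease that removes the invariant chain in antigen-presenting cells. It measured 7.52, 7.59, 7.68 and 7.61 in AdN5 arrays, against 7.08, 6.75, 7.17 and 6.95 in AdPl arrays. Ctss rose by 0.61 ± 0.10 on the log2 scale (SE; adjusted p = 0.0288 in limma), a call that held without AdPl replicate 3 (adjusted p = 0.0384) and was lost when any other single array was dropped, with adjusted p reaching 0.104. Of the 9 class II compartment genes 8 did not pass, with the thiol reductase Ifi30 lowest (9.49 ± 0.036 in AdN5 and 9.67 ± 0.048 in AdPl arrays, SD, n = 4 each; log2 fold change -0.18, adjusted p = 0.306 in limma). Ifi30 was lower on every AdN5 array, opposite to Ctss. Trend and robust estimation called both (adjusted p = 0.0218 for Ifi30), and it called 3.16% of all genes. Ctss and Ifi30 were also the 2 genes of that list with an unadjusted p under 0.05, against 12.5% of all genes.

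The standard proteasome list had 0 of 15 genes called, 10 above 0 and a median of 0.0099, between Psmb1 (0.18) and Psme4 (-0.17). It includes Psme3, Psme4 and Pomp, and its entries Psmb3 and Psmb5 were not measured. The corresponding median of the immunoproteasome list, Erap1 included, was 0.21. For interferon gamma signalling 0 of 14 genes passed (median 0.01), from Irf8 (0.25) to Ifng (-0.30), and the Ifng values of 1.73 to 2.63 were near the bottom of the range. Other H2 genes had 0 of 15 called (median 0.0019), from H2-DMb2 (0.38) to Cd1d2 (-0.36), both dim. Co-stimulatory and checkpoint ligands had 0 of 10 called (median 0.09). The checkpoint ligand gene Cd274 measured 6.70, 6.84, 6.81 and 6.93 in AdN5 arrays, against 6.45, 6.15, 6.58 and 6.64 in AdPl arrays (log2 fold change 0.37 ± 0.11, adjusted p = 0.220), and Pdcd1lg2 was lowest (-0.15). X and Y box partner factors had 0 of 10 called (median 0.04), from the NF-Y subunit Nfya (0.16) to the acetyltransferase gene Kat2b (-0.29). Of 26 interferon-stimulated genes 0 passed, 23 were above 0 (median 0.16) and the ends were the oligoadenylate synthetase gene Oas1a (0.59) and Ifit3 (-0.14). With trend and robust estimation 9 of these 26 genes were called, all higher, against 1.46% of all genes. In the highest quartile of mean levels that share was 4.32%. Among the 26, an unadjusted p under 0.05 was found for 10, all higher, against 6.24% of all genes. In the standard proteasome, interferon gamma, other H2, co-stimulatory and box partner lists, 1 of 15, 2 of 14, 2 of 15, 1 of 10 and 2 of 10 genes had one, against 12.5% of all genes in either direction. Trend and robust estimation called 1 gene of the interferon gamma list, 1 of the box partner list and 0 of the other 3, against 3.16% of all genes.

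Markers of cells that carry class II were examined beside these values. Of 12 macrophage markers all were above 0, and Adgre1 (0.68, adjusted p = 0.00884 in limma), Laptm5 (0.53, adjusted p = 0.0284) and Cd68 (0.52, adjusted p = 0.0334) rose, while Cd14 was lowest at 0.11. Over all genes 51% were above 0 and 0.364% were called as higher. An unadjusted p under 0.05 was found for 6 of the 12, all higher, against 6.24% of all genes. Their summed unlogged level was 1569 to 1795 on AdN5 arrays, against 1160 to 1291 on AdPl arrays, and 11 of the 12 lay above the level of the median gene. The call of Adgre1 held with any single array left out but not with the replicate block (adjusted p = 0.0782) or without AdN5 replicate 4 and AdPl replicate 3 together (adjusted p = 0.0774), that of Laptm5 held in the single-array fits only without AdPl replicate 4, and that of Cd68 in no such fit (adjusted p up to 0.113). The macrophage list and the values of H2-Ab1, Ctss and the immunoproteasome list were thus higher on the same arrays, and the part of these markers in those values was not tested. AdN5 replicate 3 was highest for 8 of the 12 macrophage markers, for H2-Ab1 and for Ctss. Of the 8 class II genes it was highest for 2, H2-Ab1 included, while AdPl replicate 3 was highest for 3. For the 6 immunoproteasome genes AdN5 replicate 3 was highest for 0 and AdN5 replicate 2 for 5. In a bulk sample, more cells of a type and more RNA per cell cannot be told apart.

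All 9 dendritic cell markers lay below the median gene, with summed levels of 62.8 to 68.4 on AdN5 and 63.3 to 74.4 on AdPl arrays, from Ccr7 (0.13) to Batf3 (-0.22). All 6 B lymphocyte markers (45.0 to 48.1 on AdN5 and 39.9 to 45.8 on AdPl arrays) and 5 of 6 T lymphocyte markers (43.9 to 54.5 on AdN5 and 41.2 to 45.4 on AdPl arrays) were dim as well. The ends were Pax5 (0.19) and Cd79b (-0.07) for B lymphocytes and Cd4 (0.39) and Cd2 (-0.10) for T lymphocytes, with 0 genes called in these 3 lists and 0 at an unadjusted p under 0.05. Endothelial markers had 0 of 10 called, from Cdh5 (0.35) to Egfl7 (-0.31), with summed levels of 256 to 298 on AdN5 and 242 to 284 on AdPl arrays. Of 9 fibroblast or adventitial markers, Ly6c1 fell by 1.24 on the log2 scale (adjusted p = 0.0468 in limma, and above 0.05 when any single array other than AdN5 replicate 1 was left out), and the highest was Clec3b (0.06). Of these 9 markers 7 were below 0 (median -0.17), and 4 were lower on every AdN5 array, where 4.56% of all genes were. The same number had an unadjusted p under 0.05, all lower, and trend and robust estimation called 3, all lower. Over all genes 6.29% had such an unadjusted p as lower, and limma called 0.413% as lower. Trend and robust estimation called 421 of the 24704 genes as lower. Smooth muscle markers had 0 of 10 called, with the highest at Cnn1 (0.33). Acta2, the smooth muscle actin gene, was the lowest. It measured 11.81, 11.68, 11.81 and 11.67 in AdN5 arrays, against 12.06, 12.02, 12.04 and 12.06 in AdPl arrays, so that every AdN5 array was lower. Its log2 fold change was -0.30 ± 0.071 (SE; adjusted p = 0.113 in limma), and it was called among genes above the median level (adjusted p = 0.0258) and with trend and robust estimation (adjusted p = 7.9e-05). An unadjusted p under 0.05 was found for 1 smooth muscle marker higher and 3 lower, and for 1 endothelial marker higher and 1 lower, against 6.24% of all genes higher and 6.29% lower. The part of these lower markers in the values of the antigen presentation genes was not tested.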

How the data were processed

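Total RNA of 8 samples was hybridised to single-colour arrays, and the authors deposited log2 values from RMA (per the submitters' processing notes; version not stated). The sorted values of all arrays were equal within 0.00183, so a shift shared by all genes could not be seen. The sources used here name no build or annotation for the probe sets. Of 25428 probe sets, 24705 had 1 symbol, 0 had several and 723 were unnamed here; where a symbol had more than 1 probe set, the brightest was kept. Of the Entrez identifiers, 24673 matched a RefSeq table of GRCm38.p6, used for names, gene order and promoter windows.

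Groups were compared with limma 3.58.1 in R 4.3.3 (lmFit, eBayes, two-sided, no filter, no covariate, 4 against 4 arrays), and scripts were tested on simulated data. Errors are SDs over 4 arrays or SEs from the fit, whose precision the 4 arrays a group limit. Promoter windows were searched with exact matches on both strands. Figures used Python 3.11.15 and matplotlib 3.10.9. Members and lists were chosen with earlier results of these data known. Named genes are Nfat5, every member, and the called genes and both ends of every other list. Of 106 pathway entries 99 were measured and of 66 marker entries 62. The alternatives were the replicate block, renewed quantile normalisation, median centring, filters on dim genes, the mean over probe sets, trend with robust estimation, array weights and each array left out. A further one, without AdPl replicate 3 and AdN5 replicate 4, was chosen after seeing the data.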

Additional observations from a re-analysis of the deposited data

Results flagged for a closer look

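Of 136 groups of 4 arrays examined, taking both groups of the named genes, 8 held an array far from the other 3, and chance flags about 1 in 20. Among the antigen presentation genes these were B2m in AdN5 replicate 3 (13.25, others 13.19), Psme2 in AdN5 replicate 2 (5.80, others 6.08 to 6.13), Tap2 in AdN5 replicate 3 (6.22, others 6.53 to 6.58), H2-Oa in AdN5 replicate 4 (2.74, others 3.03 to 3.07), Nlrc5 in AdN5 replicate 4 (4.76, others 5.37 to 5.42) and Ciita in AdN5 replicate 1 (3.86, others 3.58 to 3.59). Outside the list they were Kat2b in AdPl replicate 3 (6.83, others 7.02 to 7.04) and Pax5 in AdN5 replicate 2 (3.30, others 3.57 to 3.62).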

How the results depend on the processing

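The count of antigen presentation genes called stayed at 0 in 15 of 17 alternatives and was 2 among genes above the median level (Erap1, H2-Ab1) and 4 with trend and robust estimation. Over all genes the 192 calls became 14 with the replicate block, 497 above the median, 781 with trend and robust estimation, 56 to 88 with an array left out and 30 without AdPl replicate 3 and AdN5 replicate 4 together. Deviations of same-numbered arrays correlated at -0.079 to 0.055. These values cannot show whether same-numbered arrays shared a culture or batch, which the labels do not state. The replicate block left 0 members called. The 1 call among other pathway genes became 0 with the replicate block, 2 above the lower quartile, 8 above the median, 13 with trend and robust estimation, 2 with array weights, 0 to 1 with an array left out and 0 without both arrays. Nfat5 kept its sign and missed the threshold in every alternative run. Renewed quantile normalisation, median centring and the mean over probe sets, which are among the 17, left these counts as in the main fit. They could hardly do otherwise, so they say little about stability. The sorted values were already equal within 0.00183, and 24705 named probe sets gave 24704 genes.

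List medians moved with the genes or arrays kept. Above the median level they were 0.12 for class I chains and 0.18 for class II, which then hold 8 and 5 genes. With an array left out they ran from -0.059 (without AdPl replicate 2) to 0.059 for class I chains, 0.052 to 0.13 (without AdN5 replicate 3) for loading and -0.020 (without AdN5 replicate 4) to 0.13 (without AdN5 replicate 1) for class II, and from -0.19 to -0.071 (without AdN5 replicate 4) for the regulators. The regulators were at -0.048 without both arrays. The median filter leaves fewer genes, and the other causes were not tested. Of the 37 members 12 changed sign in some alternative. With an array left out the log2 fold changes ran from -0.17 to 0.11 for H2-Q10, -0.059 to 0.12 for H2-M3, -0.28 to 0.067 for Cd1d1, -0.0011 to 0.063 for Tapbpl, -0.088 to 0.13 for H2-Aa, -0.14 to 0.12 for H2-Eb1, -0.11 to 0.099 for Cd74, -0.20 to 0.016 for Nlrc5, -0.093 to 0.079 for Rfx5, -0.071 to 0.065 for Rfxank, -0.29 to 0.047 for Ifit3, -0.017 to 0.18 for Cd14 and -0.13 to 0.010 for Cd79b. Without both arrays H2-Aa was at -0.057, H2-Oa at 0.059, Cd74 at 0.086, Nlrc5 at 0.013, Ciita at 0.014, Rfx5 at -0.054, Ifit3 at 0.061 and Cd79b at 0.059. With array weights H2-Aa was at -1.22e-05, Cd74 at 0.00978 and Rfx5 at -0.0032. Arrays numbered 4 a group, and 3 of 8 class II genes lay below the median gene.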
